A study of Homo sapiens with 2 samples.

Results

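The genes described are 10 ligands, receptors, regulators and targets of the transforming growth factor beta (TGF-beta), activin and bone morphogenetic protein (BMP) pathways, chosen by symbol from the 58051 annotated genes of the series: TGFB1, TGFB2, INHBA, BMP2, BMP4, FST, TGFBR1, TGFBR2, SMAD7 and TGFBI. The choice was made with earlier results of these data known. BEAS-2B is a human bronchial epithelial line immortalised with viral genes. The series holds 1 RNA library of BEAS-2B overexpressing the calcium-permeable cation channel TRPV3 (TRPV3-OE) and 1 library of the parental line (genotype WT). Both lines were kept in LHC-9 on a coat of collagen with fibronectin, plated at equal density and frozen once confluent. TRPV3-OE cells were between passage 4 and 8 and parental cells between passage 20 and 30, so the transgene and the passage range cannot be told apart. How the line was made, and whether it is 1 clone, is not given in the sources used here.

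No difference below has replicates behind it, and no test between the conditions was possible. The libraries held 17477953 (TRPV3-OE) and 17450658 (parental) gene counts, scaled to counts per 1000000 (CPM). TRPV3 had 54077 counts in the TRPV3-OE library and 26 in the parental library. Of 10 airway epithelial markers 8 were measured, and the whole list of 10 summed to 4554 CPM in TRPV3-OE and 4656 CPM in parental cells. KRT5 was at 1001 CPM in TRPV3-OE and 1323 CPM in parental cells, and EPCAM at 266 CPM in TRPV3-OE and 182 CPM in parental cells, while NKX2-1, a lung lineage factor, had 0 counts in both. KRT17, a basal keratin, was the only measured marker of the list past 2-fold, at 370 CPM in TRPV3-OE and 757 CPM in parental cells (log2 ratio −1.03, −1.08 to −0.99), while KRT8, KRT18 and KRT19 had log2 ratios of 0.38, 0.35 and 0.45. KRT14, another basal keratin, had 0 counts in TRPV3-OE and 15 in parental cells. The ranges in brackets are exact intervals at 95% and cover counting error alone. They treat each read as an independent molecule, which PCR copies without molecular identifiers are not.

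TGF-beta, activin and BMP ligands are secreted dimers that bring together a type I and a type II receptor kinase at the cell surface. TGF-betas and activins act mainly through SMAD2 and SMAD3, BMPs through SMAD1, SMAD5 and SMAD9, and both branches use SMAD4 to reach their target genes. In airway epithelium TGF-beta is known to halt growth and to induce matrix and mesenchymal genes, activin A shares its SMADs, follistatin traps activins outside the cell, and SMAD7 closes a feedback loop by blocking the receptors.

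At a limit of 2-fold, 2 of the 10 genes were higher in TRPV3-OE, the ligand gene BMP4 and the feedback inhibitor gene SMAD7, and 2 were lower, the activin subunit gene INHBA and its antagonist gene FST. The other 6 lay between. The background is 11466 measured genes, those whose counts in the 2 libraries add up to 100 or more. Of these, 5.31% passed the limit upward and 5.35% downward, 10.7% in all. Passing means a ratio of 2-fold or more with an interval that stays on that side of 1. All 10 genes reached 100 summed counts, and 8 of them reached 100 in each library. INHBA had under 100 counts in TRPV3-OE and BMP4 under 100 in parental cells. With 10 genes, each count of 2 is a small number. These genes and the gene lists below were chosen with earlier results of these data known. Their shares beside the background are therefore a description and not a test.

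**Figure D1:**
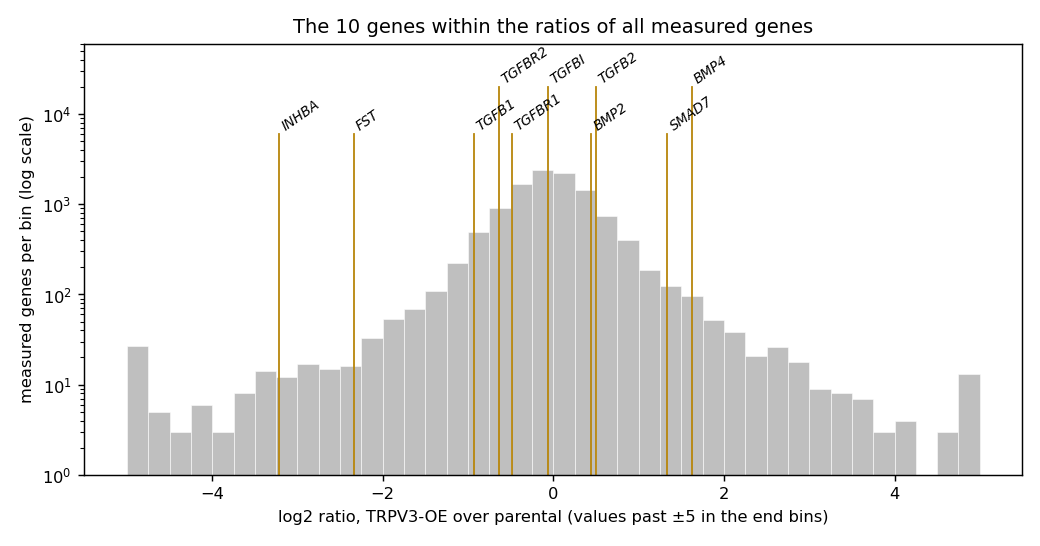
Histogram of log2 ratios (TRPV3-OE over parental, x axis) of the 11466 measured genes, with the number of genes per bin on a log y axis and lines at the 10 described genes. INHBA (−3.21) and FST (−2.34) lie in the lower tail, BMP4 (1.62) and SMAD7 (1.33) in the upper tail, and the other 6 within 2-fold of equal levels.

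The promoters of 3 of the 4 genes past 2-fold are printed below, so that their letters stand beside the values. Each is the 250 bases upstream of a RefSeq start (GRCh38.p14), taken at the start nearest to the gene's 5′ end in the count tables. RefSeq promoters were found for 9 of the 10 genes. Capitals mark matches on either strand to TGANTCA (the AP-1 motif), CAGAC (a SMAD box) or TATAAA (the TATA box), and no marked matches overlap. The windows are chr7:41703091-41703340 (minus strand) for INHBA, chr14:53955051-53955300 (minus) for BMP4 and chr18:48950966-48951215 (minus) for SMAD7.
INHBA: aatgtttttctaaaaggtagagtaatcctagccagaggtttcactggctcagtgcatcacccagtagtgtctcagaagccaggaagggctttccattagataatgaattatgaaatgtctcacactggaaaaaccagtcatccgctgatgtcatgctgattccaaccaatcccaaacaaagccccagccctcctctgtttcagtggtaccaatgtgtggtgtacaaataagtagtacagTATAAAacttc
BMP4: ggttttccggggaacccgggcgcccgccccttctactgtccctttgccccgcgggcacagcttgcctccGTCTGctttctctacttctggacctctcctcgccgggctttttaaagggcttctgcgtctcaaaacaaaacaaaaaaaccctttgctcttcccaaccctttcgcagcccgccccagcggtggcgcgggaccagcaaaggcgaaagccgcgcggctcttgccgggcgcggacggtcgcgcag
SMAD7: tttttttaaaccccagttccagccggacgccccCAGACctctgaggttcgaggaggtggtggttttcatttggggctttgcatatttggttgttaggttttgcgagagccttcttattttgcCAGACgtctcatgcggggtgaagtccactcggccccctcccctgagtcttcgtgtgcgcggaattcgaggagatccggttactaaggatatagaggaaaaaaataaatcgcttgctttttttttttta

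INHBA held a TATA box whose first base lies 11 bases before the start. That match falls in the 18 bases of the window that the count tables' annotation gives to an exon of INHBA. BMP4 and SMAD7 have 0 exon bases in theirs. The FST window is not printed because 220 of its 250 bases lie in the annotated first exon, and it held 1 AP-1 match, 160 bases before the RefSeq start. BMP4 held 1 SMAD box at 181 bases, and SMAD7 held 2, at 217 and 128 bases. Of 35116 RefSeq promoter windows of the same length, 6.57% held TGANTCA, 38.0% CAGAC and 10.7% TATAAA. The motif TGACG, the core of the cyclic AMP response element (21.2% of windows), was in none of the 4, and GGGCGG, the GC box (42.6%), was in FST and BMP4 with 2 matches each. These starts lie 2744 (INHBA), 220 (FST), 3711 (BMP4) and 254 bases (SMAD7) from the gene ends of the count tables. A match describes letters, not a bound site.

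TGFB1 and TGFB2, which encode 2 of the TGF-beta ligands, differed in opposite directions without passing 2-fold. TGFB1 (ENSG00000105329, chromosome 19, 41301587 to 41353911, GRCh38 minus strand) had 661 counts in TRPV3-OE and 1208 in parental cells, that is 37.1 CPM (34.3 to 40.1) and 70.5 CPM (66.6 to 74.6). Its level was 1.90-fold lower in TRPV3-OE, with a log2 ratio of −0.93 (−1.07 to −0.79), and 6.21% of measured genes had a ratio as low or lower. TGFB2 (ENSG00000092969, chromosome 1, 218346235 to 218444619, plus strand) had 701 counts in TRPV3-OE and 478 in parental cells. The level in TRPV3-OE was 39.4 CPM, against 27.9 CPM in parental cells, with a log2 ratio of 0.50 (0.33 to 0.67). Of its exon bases 26.6% are shared with another annotated gene on the same strand, where reads are not counted. The counting intervals of the libraries do not overlap for either gene.

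Per length, the balance between these ligands differed. TGFB1 was at 11.5 CPM per kilobase in TRPV3-OE and TGFB2 at 7.64, a ratio of 1.5 (1.35 to 1.67). In parental cells TGFB1 was at 21.8 CPM per kilobase and TGFB2 at 5.42, a ratio of 4.02 (3.61 to 4.48). By these lengths TGFB1 thus led in both libraries, by less in TRPV3-OE. The TGFB2 length includes the 26.6% of exon bases where reads are not counted. Its level per kilobase may therefore be too low, and both ratios too high. Which gene leads depends on the exon lengths used, whose error the intervals do not cover. TGFB3, the remaining isoform, was near the lower end, with 37 counts in TRPV3-OE and 26 in parental cells (log2 ratio 0.45, −0.31 to 1.24).

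INHBA showed the largest difference of the 10 genes. It encodes the beta A subunit that forms activin A as a homodimer. INHBA (ENSG00000122641, chromosome 7, 41667168 to 41705834, minus strand) had 27 counts in TRPV3-OE and 241 in parental cells, or 1.52 CPM (0.999 to 2.21) and 14.1 CPM (12.3 to 16.0). The level was 9.28-fold lower in TRPV3-OE, with a log2 ratio of −3.21 (−3.85 to −2.64), and 68 of the 11466 measured genes, INHBA among them, had a ratio as low or lower.

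INHBB, which encodes the beta B subunit of activin B, went the other way. It had 411 counts in TRPV3-OE and 86 in parental cells, a 4.60-fold higher level in TRPV3-OE (log2 ratio 2.20, 1.86 to 2.55). Per kilobase INHBB stood at 7.2 CPM in TRPV3-OE, 39.4 times (26.7 to 60.6) the level of INHBA there. In parental cells INHBB stood at 1.57 CPM per kilobase and INHBA at 1.69, a ratio of 0.925 (0.714 to 1.19) that counting error does not separate from 1. That near equality depends on the exon lengths used, 8302 bases for INHBA and 3204 for INHBB. The raw parental counts were 241 for INHBA and 86 for INHBB. INHA, the alpha subunit that turns activins into inhibins, had 6 counts in TRPV3-OE and 1 in parental cells, too few to compare. The summed INHBA and INHBB transcripts therefore were mostly INHBB in TRPV3-OE, and of both kinds in parental cells.

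FST encodes follistatin, a secreted protein that binds activins with high affinity and some BMPs more weakly. FST (ENSG00000134363, chromosome 5, 53480409 to 53487134, plus strand) had 112 counts in TRPV3-OE and 546 in parental cells, or 6.29 CPM (5.18 to 7.57) and 31.9 CPM (29.3 to 34.7). That is 5.07-fold lower in TRPV3-OE, with a log2 ratio of −2.34 (−2.65 to −2.05). Both INHBA and FST RNA were thus lower. FSTL3, a follistatin relative that also binds activins, was 1.46-fold lower, at 50.3 CPM in TRPV3-OE and 73.2 CPM in parental cells. It exceeded FST per length by 7.74 times (6.35 to 9.50) in TRPV3-OE and by 2.22 times (2.01 to 2.46) in parental cells. FSTL1, a more distant relative, was 4.72-fold lower, with 158 counts in TRPV3-OE and 717 in parental cells. Of the 17 listed secreted antagonists 5 were measured. Of these 5, 2 were at least 2-fold lower, FST and FSTL1, and 0 higher, against 5.35% and 5.31% of all measured genes. FST is itself a described gene, and the list was chosen with earlier results known, so these shares test nothing.

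BMP4 was higher in TRPV3-OE and BMP2 did not pass 2-fold. Both encode closely related ligands of the BMP type I receptors. BMP4 (ENSG00000125378, chromosome 14, 53949736 to 53958761, minus strand) had 272 counts in TRPV3-OE and 85 in parental cells, or 15.3 CPM (13.5 to 17.2) and 4.96 CPM (3.96 to 6.14). The level was 3.08-fold higher in TRPV3-OE, with a log2 ratio of 1.62 (1.27 to 1.99), and 2.15% of measured genes had a ratio as high or higher. BMP2 (ENSG00000125845, chromosome 20, 6767664 to 6780280, plus strand) had 191 counts in TRPV3-OE and 135 in parental cells, with a log2 ratio of 0.44 (0.12 to 0.77).

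By total exon length, the order of these BMP genes was reversed between the libraries. In TRPV3-OE BMP4 was at 4.96 and BMP2 at 2.98 CPM per kilobase, a ratio of 1.66 (1.38 to 2.01). In parental cells BMP4 was at 1.61 and BMP2 at 2.19 CPM per kilobase, a ratio of 0.736 (0.554 to 0.972). These intervals carry no error of the lengths, so which gene leads within a library depends on the lengths used. Among 18 listed BMP and GDF ligand genes 4 were measured, and 8 had 0 counts in both libraries. Of the 4 measured, 2 were higher and 0 lower, against 5.31% and 5.35% of all measured genes. BMP4, itself a described gene, is among the 2, and the list was chosen with earlier results known, so these shares test nothing. The other one that was higher was GDF15, a stress-responsive and distant member of the superfamily, at 37.3 CPM in TRPV3-OE and 15.3 CPM in parental cells (2.44-fold). BMP4 and GDF15 do not signal through the same receptors.

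**Figure D2:**
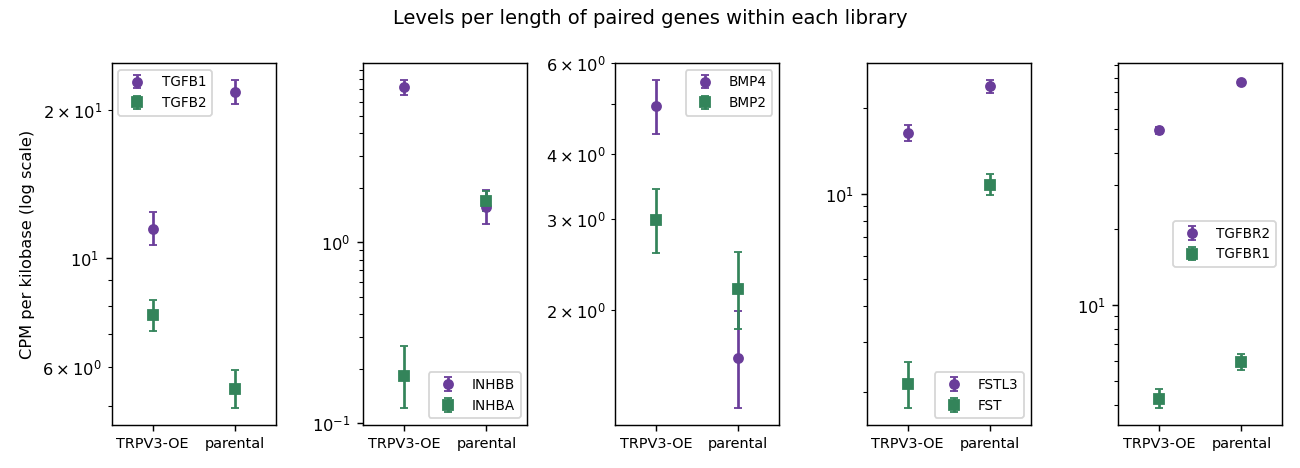
Level per length (CPM per kilobase, log y axis with its own range in each panel) of 5 gene pairs in the TRPV3-OE library (left of each panel) and the parental library (right), with 95% Poisson intervals for counting error. INHBB and INHBA are apart in TRPV3-OE (7.2 and 0.183) and together in parental cells (1.57 and 1.69), and BMP4 lies above BMP2 in TRPV3-OE and below it in parental cells. The intervals do not cover error in the exon lengths used, on which the order within a library depends.

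The TGF-beta receptor genes were both lower in TRPV3-OE by less than 2-fold. TGFBR2, the type II receptor that binds TGF-beta (ENSG00000163513, chromosome 3, 30606502 to 30694142, plus strand), had 4131 counts in TRPV3-OE and 6168 in parental cells, or 232 CPM (225 to 239) and 360 CPM (351 to 369). The log2 ratio was −0.63 (−0.69 to −0.58), a 1.55-fold lower level, and 12.7% of measured genes were as low or lower. TGFBR1, the type I receptor kinase it activates (ENSG00000106799, chromosome 9, 99104038 to 99154192, plus strand), had 517 counts in TRPV3-OE and 695 in parental cells (log2 ratio −0.48, −0.65 to −0.32). Per length TGFBR2 exceeded TGFBR1 by 11.6 times (10.6 to 12.8) in TRPV3-OE and by 12.9 times (11.9 to 14) in parental cells, intervals that overlap.

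None of the 5 measured type I and 4 measured type II receptor genes passed 2-fold in either direction, with medians of −0.19 and −0.22, against −0.03 for all measured genes. After subtraction of the median of each gene's neighbours these became −0.08 and −0.11, and the type II median was −0.49 at a minimum of 500 counts. ACVR1B, a type I receptor for activins and the most abundant non-member of its list per length, was at 40.4 CPM in TRPV3-OE and 36.8 CPM in parental cells. BMPR2, the BMP type II receptor, was at 34.3 CPM in TRPV3-OE and 43.6 CPM in parental cells. ACVR2B, an activin type II receptor named after its value was seen, was just below the limit, with 250 counts in TRPV3-OE and 125 in parental cells (log2 ratio 0.94, 0.63 to 1.26). It was past the limit under upper quartile scaling (1.002) and after subtraction of its neighbours' median (1.05). ACVRL1 and AMHR2, receptors of endothelial and gonadal cells, had 0 counts in both libraries.

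Co-receptors present ligands to these kinases. TGFBR3, betaglycan, which captures TGF-beta and inhibin, was 2.01-fold higher, with 278 counts in TRPV3-OE and 133 in parental cells. Its log2 ratio of 1.01 lies beside a median of 0.81 over the 50 nearest measured genes on chromosome 1. Endoglin (ENG), which favours BMP and TGF-beta signalling in endothelium, was at 45.4 CPM in TRPV3-OE and 88.1 CPM in parental cells (log2 ratio −0.96, −1.08 to −0.83). The median around ENG was 0.39. Of 4 measured co-receptor genes 1 was higher and 0 lower, against 5.31% and 5.35% of all measured genes. After subtraction of the neighbours' medians 0 were higher and 1 lower, since TGFBR3 became 0.20 and ENG −1.35.

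SMAD7 encodes the inhibitory SMAD that recruits ubiquitin ligases to activated receptors, and both TGF-beta and BMP are known to induce it. SMAD7 (ENSG00000101665, chromosome 18, 48919853 to 48950711, minus strand) had 270 counts in TRPV3-OE and 103 in parental cells, or 15.2 CPM (13.4 to 17.1) and 6.01 CPM (4.91 to 7.29). It was 2.52-fold higher in TRPV3-OE, with a log2 ratio of 1.33 (1.0 to 1.68), and 3.31% of measured genes were as high or higher. SMAD6, the inhibitory SMAD of the BMP branch, had 66 counts in TRPV3-OE and 18 in parental cells, under the minimum of 100 (log2 ratio 1.82, 1.05 to 2.66). PMEPA1, which sequesters receptor-regulated SMADs, was 2.25-fold higher, at 334 CPM in TRPV3-OE and 148 CPM in parental cells. SMURF2, a ubiquitin ligase that works with SMAD7 on the receptors, was 2.51-fold lower, at 40.1 CPM in TRPV3-OE and 100 CPM in parental cells. Of 11 measured inhibitory SMADs and intracellular regulators 2 were higher and 1 lower (18.2% and 9.09%, against 5.31% and 5.35% of all measured genes).

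Of the SMADs that carry the signal, SMAD2, SMAD3, SMAD4 and SMAD5 had log2 ratios between 0.00 and 0.17. SMAD1, of the BMP branch, had 222 counts in TRPV3-OE and 381 in parental cells (log2 ratio −0.84, −1.08 to −0.59), beside a median of −0.67 over its 50 nearest measured genes. SMAD9, of the same branch, was the only one of the 6 past 2-fold. It had 73 counts in TRPV3-OE and 29 in parental cells, a 2.42-fold higher level that rests on few reads (log2 ratio 1.28, 0.64 to 1.95).

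**Figure D3:**
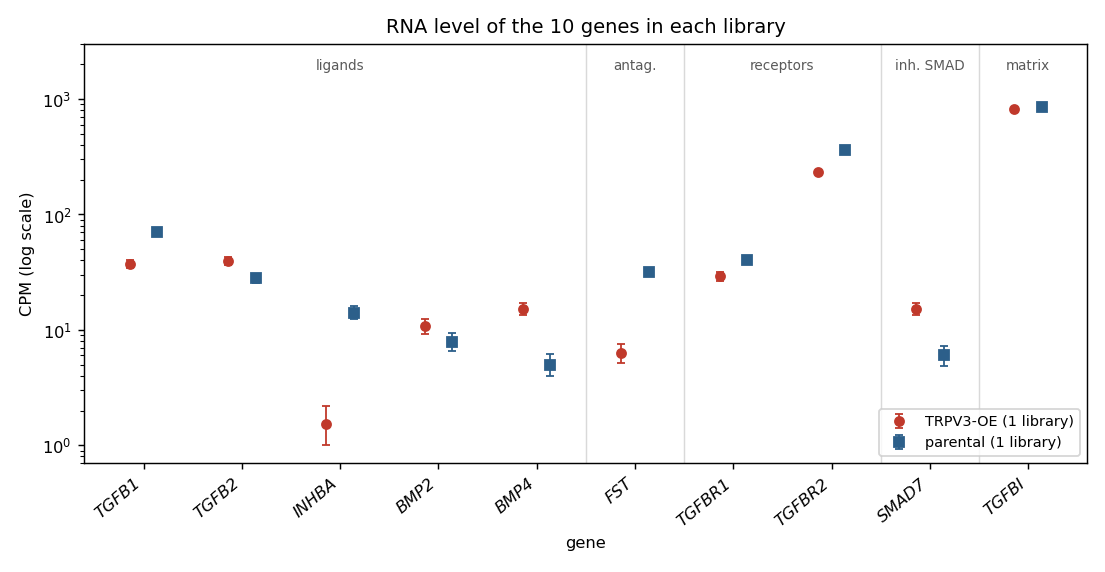
RNA level (CPM, log y axis) of the 10 genes grouped by role, in the TRPV3-OE library (circles, left of each pair) and the parental library (squares, right), with 95% Poisson intervals for counting error. Levels span 1.52 CPM (INHBA in TRPV3-OE) to 853 CPM (TGFBI in parental cells), and TGFBI nearly coincides between the libraries.

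TGFBI, the most abundant of the 10 genes per length in both libraries, hardly differed. It encodes a secreted matrix protein that binds collagens and integrins and is named for its induction by TGF-beta. TGFBI (ENSG00000120708, chromosome 5, 136028895 to 136063818, plus strand) had 14586 counts in TRPV3-OE and 14603 in parental cells, or 819 CPM (806 to 832) and 853 CPM (839 to 867). The log2 ratio was −0.06 (−0.09 to −0.02), and it was 0.000333 under upper quartile scaling, with its sign turned.

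Genes known to respond to TGF-beta or activin passed the limit in both directions. This list was chosen with earlier results of these data known, so its shares are a description and not a test. Of the 19 measured, 6 passed it downward (31.6%, against 5.35% of all measured genes) and 2 upward (10.5%, against 5.31%). Their median log2 ratio was −0.11, and that of all measured genes −0.03. It was −0.33 at minimums of 1 and 20 counts and −0.56 at a minimum of 500. ADAM19, a membrane protease, had 68 counts in TRPV3-OE and 846 in parental cells and was 12.9-fold lower. The fibronectin gene FN1 was 10.5-fold lower, at 143 CPM in TRPV3-OE and 1500 CPM in parental cells. COL4A1, a basement membrane collagen, was 4.5-fold lower, at 14 CPM in TRPV3-OE and 62.9 CPM in parental cells. The 2 that were higher, SMAD7 and PMEPA1, encode inhibitors of the pathway. SKIL, another feedback gene of the list, picked with its value known, was at 0.03 (−0.10 to 0.16) on the log2 scale. Of the 19, 8 had a ratio above 1 and 11 below 1. Above 1 but inside the limit, and also picked with their values known, were CDKN2B (0.72, 0.58 to 0.87) and CDKN1A (0.72, 0.62 to 0.82). So were LMCD1 (0.73, 0.15 to 1.33) and JUNB (0.64, 0.53 to 0.74). Below 1 but inside the limit, picked in the same way, were CCN2 (−0.98, −1.06 to −0.91) and COL1A1 (−0.58, −0.80 to −0.36). FSTL3 (−0.54, −0.67 to −0.42) lay there too. After subtraction of its neighbours' median CCN2 was past the limit, at −1.20.

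Of 12 genes known to respond to BMP only 4 were measured, and 2 of these, SMAD7 and SMAD9, were higher, against 5.31% of all measured genes. Both are also counted in other lists above. ID1, an inhibitor of differentiation factors and the standard BMP readout, had 2158 counts in TRPV3-OE and 2072 in parental cells (log2 ratio 0.00, −0.09 to 0.09). Its relative ID3 was at 23.2 CPM in TRPV3-OE and 36.0 CPM in parental cells (log2 ratio −0.63, −0.81 to −0.45). ID1 and ID3 were named after their values were seen.

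TGF-beta is secreted in a latent complex with LTBP proteins and is released by integrins, proteases and thrombospondin 1. In this group of 11 measured genes 1 was higher and 3 lower (9.09% and 27.3%, against 5.31% and 5.35% of all measured genes). THBS1 and LTBP2 are also in the list of genes known to respond to TGF-beta or activin. THBS1, the activator thrombospondin 1, was 3.09-fold lower, at 384 CPM in TRPV3-OE and 1187 CPM in parental cells. FBN2, the microfibril protein fibrillin 2, was 2.42-fold lower, at 92.2 CPM in TRPV3-OE and 223 CPM in parental cells. Among the binding proteins LTBP1 had 99 counts in TRPV3-OE and 28 in parental cells (3.40-fold higher). LTBP2 was 2.02-fold lower, with a log2 ratio of −1.01 that became −0.96 when the libraries were scaled by total counts, inside the limit. LTBP3 was just inside the limit at 0.997, with 3119 counts in TRPV3-OE and 1503 in parental cells, and was past it at 1.05 by total counts. ITGB6 and ITGB8, the beta chains of the epithelial integrins that release TGF-beta, had log2 ratios of −0.05 (−0.22 to 0.12) and −0.17 (−0.40 to 0.05).

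Over the 127 genes of all 12 lists together, 70 were measured, with 8 past the limit upward (11.4%) and 11 downward (15.7%). Without the 10 described genes the counts were 6 and 9 of 60 (10% and 15%). The shares over all measured genes were 5.31% and 5.35%. Because the lists were chosen with earlier results of these data known, their shares describe the listed genes and test nothing. Of the 127 genes, 9 are in 2 or more lists, so the counts of single lists above overlap. The median log2 ratio was −0.11 over the 70 genes.

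**Figure D4:**
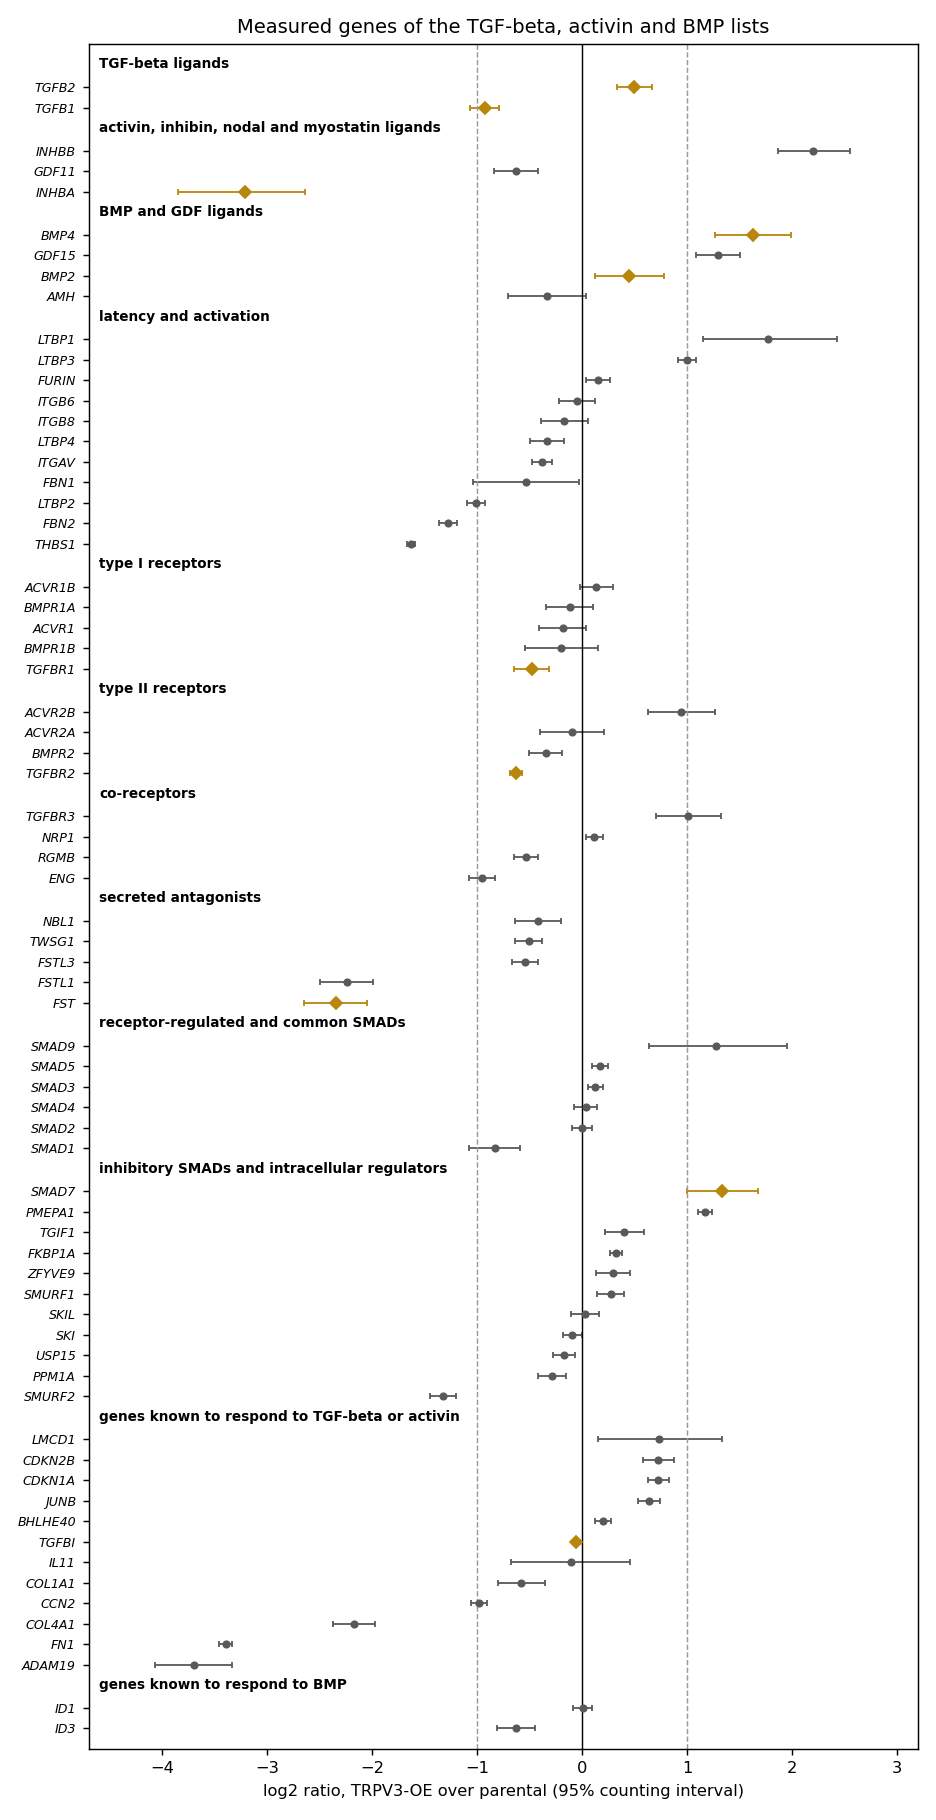
Log2 ratio (TRPV3-OE over parental, x axis) of 69 of the 70 measured genes, with 95% counting intervals, grouped by list and shown once under the first list that holds it; diamonds are the 10 described genes and dashed lines mark 2-fold. The type I and type II receptor lists lie within 2-fold on both sides, while ADAM19 (−3.69) and INHBB (2.20) are the outermost values.

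Ratios in these libraries vary along chromosomes, so each gene was set beside its 50 nearest measured genes. For 3 of the 4 genes past 2-fold the local median was small: 0.15 around INHBA, 0.14 around FST and 0.20 around SMAD7. It was 0.25 around BMP4. FST was below all 50 of its neighbours, and 1 neighbour each was as low as INHBA or as high as SMAD7, while 3 were as high as BMP4. After subtraction of the local median the log2 ratios were −3.37 for INHBA, −2.49 for FST, 1.38 for BMP4 and 1.14 for SMAD7, all still past 2-fold. BMP2 lay in a region with a median of 0.57, and its own ratio of 0.44 became −0.13. TGFB2, with a local median of 0.30, became 0.20, and TGFB1, with −0.17, became −0.75. TGFBR1, with −0.24, became −0.24 from its own −0.48, and TGFBR2, with −0.08, became −0.55. The cause of these regional values was not tested.

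**Figure D5:**
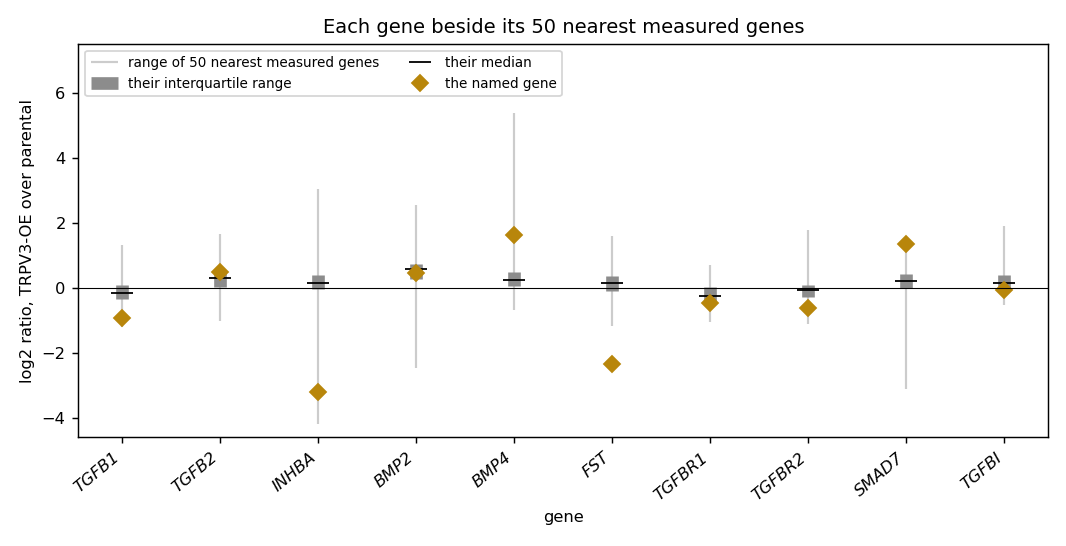
Log2 ratio (TRPV3-OE over parental, y axis) of each of the 10 genes (diamonds) beside the median (dash), interquartile range (thick bar) and full range (thin line) of its 50 nearest measured genes. FST lies below all of its neighbours and BMP2 within the interquartile range of its own.

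Markers of other cell types were few. Of 9 fibroblast markers, which would bring matrix and TGF-beta genes, 2 were measured. The summed level of that list was 124 CPM in TRPV3-OE and 98.2 CPM in parental cells, most of it FBLN1 (107 CPM in TRPV3-OE and 72.7 CPM in parental cells). COL1A1 was at 16.0 CPM in TRPV3-OE and 23.9 CPM in parental cells, THY1 had 2 counts in TRPV3-OE and 19 in parental cells (log2 ratio −3.30, −6.45 to −1.25), and DCN had 0 in TRPV3-OE and 5 in parental cells. COL3A1 and LUM had 0 counts in both libraries. The endothelial list summed to 3.26 CPM in TRPV3-OE and 16.7 CPM in parental cells, with KDR and TEK at 0 in both, and CDH5 the only measured member (35 counts in TRPV3-OE and 268 in parental cells). PECAM1 had 23 counts in TRPV3-OE and 14 in parental cells (log2 ratio 0.66, −0.36 to 1.73). VWF had 0 in TRPV3-OE and 4 in parental cells. The smooth muscle list summed to 5.62 CPM in TRPV3-OE and 8.17 CPM in parental cells, with DES and CNN1 at 0. The immune list summed to 25.9 CPM in TRPV3-OE and 4.26 CPM in parental cells, nearly all from CD14 (460 counts in TRPV3-OE and 72 in parental cells), with PTPRC and CD3E at 0 in both. The part of cells that carry these markers in the differences above was not tested. In these bulk RNA samples fewer cells that express a gene and less RNA per cell cannot be told apart.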

How the data were processed

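RNA of 1 TRPV3-OE and 1 parental culture was sequenced. The authors deposited unnormalised read counts for each gene. Per the file headers, they come from featureCounts 1.5.0-p3, counting reads on the opposite strand, with Ensembl release 87 models of GRCh38.p7. No option for reads with several alignments or over several genes appears there, so such reads are by default not counted, which lowers genes with shared exons. The submitters' processing notes also list STAR and DESeq2, with no version.

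Symbols came from a gene name table (56948 of 58051 IDs) and biotypes from GENCODE 29. All 10 genes and all 127 listed genes matched 1 ID. Counts were scaled with TMM factors (1.02 for TRPV3-OE and 0.981 for parental) (edgeR 4.0.16, run under R 4.3.3). With no replicates there was no dispersion to estimate and no count model. Then 1 count equals 0.0562 CPM in TRPV3-OE and 0.0584 CPM in parental cells. CPM per kilobase divides by the total exon length in the files, which is longer than any 1 transcript for many genes. CPM intervals are exact Poisson, those of ratios exact conditional binomial (Clopper-Pearson), all at 95%, and ratios take 0.5 in place of a count of 0. Measured genes have at least 100 summed counts.

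The 10 genes, the lists and the motifs were chosen with earlier results of these data known. The naming rule took the 10 genes, up to 4 other genes past 2-fold per list by absolute log2 ratio, and the most abundant other gene per length of each ligand and receptor list. Genes named besides these were chosen after their values were seen. Some listed genes are counted but not reported here by name. The calculation was tested on simulated data. The alternatives were other scalings (total counts, DESeq2 1.42.0 size factors, upper quartile), 5 as prior count, count minimums of 1, 20 and 500, limits of 1.5-fold and 4-fold, each gene set against its 50 nearest genes by their median, and protein-coding genes alone. Promoter sequences are from RefSeq (GRCh38.p14). Tables and figures were made in Python 3.11.15 (pandas 2.3.3, numpy 2.4.6, scipy 1.17.1, matplotlib 3.10.9).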

Additional observations from a re-analysis of the deposited data

How the results depend on the processing

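No paired analysis was possible because neither condition has replicates, and so none could be left out in turn. The 2 higher and 2 lower genes among the 10 were the same number under every scaling, the prior count, minimums of 1 and 20, subtraction of neighbours and protein-coding genes alone. A minimum of 500 counts left 0 higher and 1 lower, a limit of 1.5-fold gave 2 and 4, and a limit of 4-fold 0 and 2, since fewer or more genes qualify by construction. For the 70 listed genes, the 8 higher genes became 2 under a minimum of 500, 14 under the 1.5-fold limit and 1 under the 4-fold limit. The 11 lower genes became 18 under the 1.5-fold limit and 7 under the 4-fold limit. Their median of −0.11 ranged from −0.19 to −0.02. Of 50 values of the 10 genes under other scalings, the prior count and the subtraction of neighbours, 40 stayed within their interval, 10 moved and 0 genes past 2-fold reversed. Of 108 medians of the 12 lists, 24 moved by more than 0.1. TGFBR3 was inside the limit with a prior count of 5 (0.98) and after subtraction of neighbours (0.20). No scaling moved the median of all measured genes by more than 0.0582. For genes with few counts, such as INHBA in TRPV3-OE, counting error alone spans more than 1 unit of log2 ratio.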

Other observations

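Some listed genes lay under the minimum of 100 summed counts and yet differed beyond counting error. SOSTDC1, a secreted antagonist of BMPs and WNTs, had 25 counts in TRPV3-OE and 2 in parental cells (log2 ratio 3.59, 1.58 to 6.71). BMP6, a BMP ligand, had 3 counts in TRPV3-OE and 15 in parental cells (log2 ratio −2.38, −4.81 to −0.56). BGN, the TGF-beta binding proteoglycan biglycan, had 0 counts in TRPV3-OE and 30 in parental cells. At a floor of 3 counts per library, or 0.168 CPM in TRPV3-OE, and with the parental count taken as exact, its level was at least 10.4-fold lower in TRPV3-OE. The exact interval of its log2 ratio, which covers the error of both counts, ends at −2.99. Of the 127 listed genes 31 had 0 counts in both libraries. Among these, GDF1 shares 100% of its exon bases with another gene on the same strand and TMEFF1 75.9%, where reads are not counted, so their value of 0 says little.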
